A study of Homo sapiens with 24 samples.

Results

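ARPE-19 cells that received Nrf2 and Pink1 siRNA together were compared with ARPE-19 cells that received Nrf2 siRNA alone, which asks what Pink1 siRNA adds where NFE2L2 RNA is already low. The comparison takes every sample labelled with one of these treatments, 12 deposited samples of 24, which are 6 samples of 12 once the 2 technical replicates of each are averaged: Nrf2 siRNA replicates 1 to 3 and double siRNA replicates 1 to 3. The other 6 are scrambled siRNA and Pink1 siRNA alone, 3 of each, and serve as reference. ARPE-19 is a spontaneously immortalised human line from retinal pigment epithelium (RPE), the pigmented layer that supports photoreceptors, so all groups share 1 line. The labels call the groups knockouts while the study's design text and the sample titles speak of siRNA and knockdown, so the treatment is treated here as a transient loss of RNA. The protocol text describes wounding the cell layer and imaging it 24 hours later, and leaves unsaid whether RNA was taken from wounded layers. Nothing says that the 3 replicates came from separate cultures, so p-values measure a spread between samples, pooled over all 12, which may be technical. Depth is unknown, because values were deposited as TPM, an abundance corrected for transcript length that carries no read totals.

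NFE2L2 encodes NRF2, a transcription factor that KEAP1 marks for degradation until oxidants or electrophiles stop it, after which it switches on antioxidant, glutathione and NADPH-producing enzymes. PINK1 is a kinase that is imported into healthy mitochondria and then degraded. On damaged mitochondria it builds up at the outer membrane, phosphorylates ubiquitin and so marks the organelle for mitophagy. RPE cells depend on both systems because they live under high oxygen and light and digest shed photoreceptor membranes.

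Of 13810 genes whose average level reached 1 TPM, only PINK1 and SCHIP1 differed between double siRNA and Nrf2 siRNA at an adjusted p below 0.05 (limma on log2(TPM + 1), 2-sided, Benjamini-Hochberg adjustment over all genes tested), and both were lower. That is 0.0145% of the genes tested. The 3 values of each group did not overlap, with double siRNA higher, for 529 genes (3.83%), and with double siRNA lower for 782 genes (5.66%). At an unadjusted p below 0.05, 360 genes were higher (2.61%) and 600 were lower (4.34%). With the 2 compared groups fitted alone, limma gave 624 genes at an unadjusted p below 0.05 and called 0. The fit of all 4 groups gave 960 and called 2. The median difference over all genes was -0.01 on the log2 scale. Counts for gene lists below are to be read against these percentages, and a gene counted as apart is one whose 3 double siRNA values all lie above, or all below, its 3 Nrf2 siRNA values.

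The 6 samples differed in composition. A single gene model, ENSG00000226958, for which the name table holds no symbol, took 29.9%, 38.6% and 32.2% of all TPM in Nrf2 siRNA replicates 1 to 3 and 41.4%, 29.4% and 15.5% in double siRNA replicates 1 to 3, so what is left for other genes varied most within the double group. Double siRNA replicate 3 had 43 genes more than 2-fold above, and 31 more than 2-fold below, every other sample. The median gene's standard deviation on the log2 scale was 0.31 within double siRNA and 0.21 within Nrf2 siRNA. It was 0.17 within scrambled siRNA and 0.20 within Pink1 siRNA alone. The fit estimated 1 spread per gene over all 4 groups, so p-values of the comparison also rest on these 2 tighter groups. Correlations across genes between samples of the 2 groups (0.939 to 0.957) covered nearly the range found within Nrf2 siRNA (0.946 to 0.957) and within double siRNA (0.940 to 0.959). Of the RPE markers, OTX2 (66.8 and 71.8 TPM in Nrf2 siRNA and double siRNA), PAX6 (92.9 and 98.2 TPM) and MITF (67.3 and 86.6 TPM) were present, while RPE65 and RGR, which define mature RPE, were at or near 0. The blood marker PTPRC, the glial marker GFAP and the endothelial marker CLDN5 were also near 0. Other members of these marker lists did reach an average of 1 TPM: CD68 of blood, KDR of endothelial, and MAP2, SYT1 and PDE6B of neural and photoreceptor cells.

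PINK1 (ENSG00000158828) was at 66.6, 50.7 and 54.3 TPM in Nrf2 siRNA replicates 1 to 3 and at 15.3, 20.5 and 20.2 TPM in double siRNA replicates 1 to 3. Every double siRNA sample lay below every Nrf2 siRNA sample. PINK1 fell from 57.2 ± 8.35 to 18.7 ± 2.93 TPM (SD, n = 3 each), a log2 difference of -1.57 with a standard error of 0.17 and a limma adjusted p of 0.00914. The double siRNA cells thus held 32.7% of the PINK1 RNA of Nrf2 siRNA cells. In bulk samples, fewer cells with an RNA and less RNA per cell cannot be told apart. Pink1 siRNA alone left 13.2, 12.4 and 18.3 TPM against 53.9, 57.7 and 55.8 TPM with scrambled siRNA (log2 difference -1.88, limma adjusted p = 0.00056). The 2 differences in PINK1 were not distinguished by their interaction, 0.31 on the log2 scale (limma adjusted p = 0.913). The PINK1 call was lost when the 2 groups were fitted without the other 2 (limma adjusted p = 0.177) and when technical replicate 2 was used alone (limma adjusted p = 0.0712).

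NFE2L2 (ENSG00000116044) was at 25.045, 11.1 and 23.9 TPM in Nrf2 siRNA and at 22.2, 30.1 and 34.4 TPM in double siRNA, so the groups overlapped. Both stood below scrambled siRNA, at 89.2, 74.3 and 78.5 TPM, and Pink1 siRNA alone, at 64.1, 70.4 and 71.6 TPM. Within the low range the double group was 0.57 higher on the log2 scale (95% confidence interval 0.02 to 1.11), with an unadjusted p of 0.0443 and a limma adjusted p of 0.711. Nrf2 siRNA replicate 2 carried much of this: without it the log2 difference was 0.21. Equal NFE2L2 RNA in the 2 groups was not shown.

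**Figure D1:**
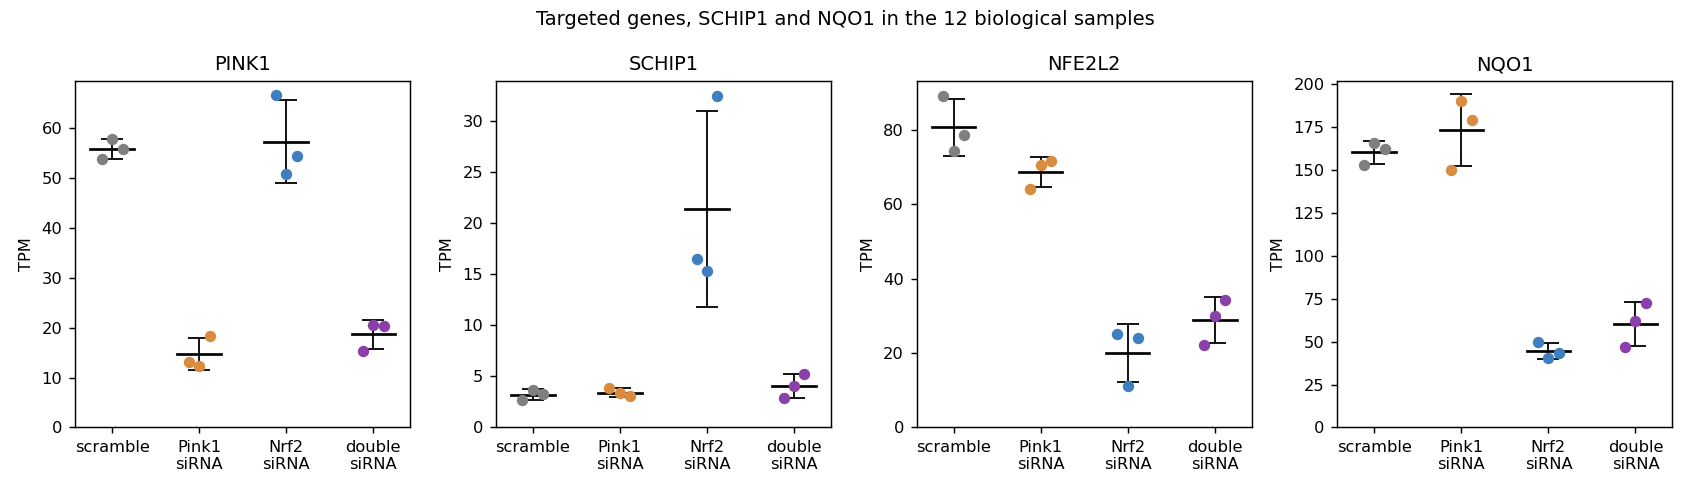
TPM of PINK1, SCHIP1, NFE2L2 and NQO1 (an NRF2 target) in each sample (points, mean of 2 technical replicates) by siRNA group, with a line at the group mean and bars of 1 SD (n = 3). PINK1 is low in both groups given Pink1 siRNA, NFE2L2 and NQO1 are low in both groups given Nrf2 siRNA, and SCHIP1 is above 15 TPM in the 3 samples given Nrf2 siRNA alone (15.3 to 32.4 TPM) and at most 5.21 TPM in the others.

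SCHIP1 (ENSG00000151967), a coiled-coil protein named for its binding to the NF2 tumour suppressor schwannomin, was the other gene called. It was at 16.5, 15.3 and 32.4 TPM in Nrf2 siRNA and at 2.86, 4.005 and 5.21 TPM in double siRNA. SCHIP1 fell by 2.10 on the log2 scale (SE 0.26, limma adjusted p = 0.0166). Scrambled siRNA (2.63 to 3.69 TPM) and Pink1 siRNA alone (3.05 to 3.87 TPM) were as low as the double siRNA cells, and the Pink1 siRNA difference in SCHIP1 without Nrf2 siRNA was 0.07 (limma adjusted p = 0.948). The interaction for SCHIP1, -2.17, did not pass over all genes (limma adjusted p = 0.209). The SCHIP1 call was lost without the filter on low genes (limma adjusted p = 0.0538), with the 2 groups alone (0.307), with technical replicate 1 or 2 alone (0.547 and 0.233) and without double siRNA replicate 1 or 2 (0.0567 and 0.0786). A read-through gene model of the neighbouring IQCJ gene overlaps SCHIP1 and was not analysed here, so the share of its reads in SCHIP1 is uncertain.

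Among the 12 with the smallest p on the higher side stood EEF2, the elongation factor that moves the ribosome along mRNA. EEF2 was at 641, 588 and 663 TPM in Nrf2 siRNA and 1152, 1071 and 1165 TPM in double siRNA. Its log2 difference of 0.84 had a limma adjusted p of 0.217, and Pink1 siRNA alone gave 0.72 against scrambled siRNA (limma adjusted p = 0.0501). SLC25A6, an ADP/ATP carrier of the inner mitochondrial membrane, was at 177, 143 and 172 TPM against 262, 267 and 269 TPM (0.70, limma adjusted p = 0.347). SLC25A6 also rose with Pink1 siRNA alone (0.82, limma adjusted p = 0.0384). The neuronal-type tubulin TUBB3 was at 33.1, 28.3 and 26.5 TPM against 52.1, 49.1 and 44.98 TPM, and UPK3B, a uroplakin, at 25.6, 13.9 and 18.9 TPM against 46.9, 33.1 and 37.3 TPM. In each of these 4 genes the groups did not overlap, and none passed the adjustment. EEF1A1P5 (log2 difference 0.80) and EEF1A1P6 (1.04), pseudogenes of elongation factor EEF1A1, could share reads with EEF1A1 itself, which was at 10023, 6761 and 8840 TPM against 10663, 15857 and 19138 TPM (0.81, limma adjusted p = 0.387).

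On the lower side, SCARNA1, a guide RNA that directs modification of spliceosomal RNA in Cajal bodies, had the smallest p of all genes after the pair called. SCARNA1 was at 100.1, 106 and 148 TPM in Nrf2 siRNA and 47.8, 22.9 and 27.2 TPM in double siRNA (log2 difference -1.87, limma adjusted p = 0.0685). MDM2, a ubiquitin ligase of growth and stress control, was at 95.4, 94.0 and 80.9 TPM against 45.3, 61.7 and 36.05 TPM (-0.93, limma adjusted p = 0.347). The scaffold RNA of paraspeckles, NEAT1, was at 5.97, 5.26 and 7.11 TPM against 2.75, 3.19 and 1.79 TPM. NUP43, a subunit of the nuclear pore's Y complex, was at 9.95, 8.29 and 8.54 TPM against 3.41, 5.80 and 2.75 TPM (-1.04), and Pink1 siRNA alone gave nearly the same difference in it, -1.08 (limma adjusted p = 0.05). HELZ2, a helicase, and UBA7, the enzyme that activates ISG15 for conjugation, are interferon-inducible but not in the effector list described next.

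Of the 29 gene lists examined, the interferon-stimulated effectors held the most genes that were apart and lower. Type I interferon binds IFNAR1 and IFNAR2, the kinases JAK1 and TYK2 phosphorylate STAT2, which joins IRF9 in a complex that binds the interferon-stimulated response element (ISRE) in promoters of antiviral effectors. Cytosolic sensors of foreign or mislocated nucleic acid, such as RIGI and IFIH1 for RNA, start the response. A minimal ISRE core, GAAA, any 2 bases and GAAA on either strand (read as TTTC, any 2 bases and TTTC on the other), was searched in the RefSeq promoters of GRCh38.p14, 250 bases before to 50 after each gene's start. The pattern contains the GAAA repeat that interferon regulatory factors bind. It was present in 26 of the 34 effector genes with a promoter in the table (76.5%), against 1195 of all 27305 genes with one (4.4%). Among the genes tested here the share was 3.8%. The windows of 5 effectors with large differences that hold the pattern are shown, because most but not all effector promoters held it. Matches are in capitals with 25 bases on either side, 5′ to 3′ on the gene's own strand.
IFI6 (chr1:27672251-27672373, minus strand): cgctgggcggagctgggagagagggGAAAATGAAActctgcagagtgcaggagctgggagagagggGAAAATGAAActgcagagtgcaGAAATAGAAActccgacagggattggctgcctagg
IFI27 (chr14:94110603-94110675, plus strand): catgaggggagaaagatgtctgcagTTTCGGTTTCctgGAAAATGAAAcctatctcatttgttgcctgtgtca
IFITM1 (chr11:313975-314034, plus strand): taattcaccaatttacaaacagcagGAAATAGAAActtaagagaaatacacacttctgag
BST2 (chr19:17405720-17405785, minus strand): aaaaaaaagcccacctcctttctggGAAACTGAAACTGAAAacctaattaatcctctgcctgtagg
RSAD2 (chr2:6877607-6877666, plus strand): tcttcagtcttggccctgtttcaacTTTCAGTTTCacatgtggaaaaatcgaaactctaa
IFI6 holds 3 matches, IFI27 and BST2 hold 2 each, those of BST2 sharing 4 bases, and IFITM1 and RSAD2 hold 1. The match nearest the annotated start ends 83 bases before it in IFI6, 85 in IFI27, 30 in IFITM1, 114 in BST2 and 135 in RSAD2. A match is a description of the letters and not a measured binding site. The element was also in 12 of 16 promoters of guanylate-binding and antigen-presentation genes (75.0%), in 4 of 18 of the signalling genes (22.2%) and in 4 of 48 of the cytosolic ribosomal protein genes (8.3%). Among effectors whose groups did not overlap it was in 14 of 21 promoters (66.7%), and among those whose groups overlapped in 11 of 12 (91.7%).

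All 39 effector genes tested, of 40 listed, had a lower mean in double siRNA than in Nrf2 siRNA, with log2 differences from -2.98 to -0.42 and a median of -1.54, beside -0.01 over all genes. None passed the adjustment (smallest limma adjusted p = 0.347), 38 had an unadjusted p below 0.05, and 24 were apart and lower, where 5.66% of all genes were. IFI6 (ENSG00000126709), a mitochondrial and ER protein, was the most abundant of those named here, at 1542, 3226 and 2241 TPM in Nrf2 siRNA and 353, 463 and 896 TPM in double siRNA (log2 difference -2.08, limma adjusted p = 0.371). IFITM1, a membrane protein that blocks virus entry, was at 60.5, 449.6 and 163 TPM against 10.4, 14.2 and 53.2 TPM (-2.98). IFI27 was at 48.5, 304 and 131 TPM against 6.69, 15.4 and 45.8 TPM (-2.80). In all 3 the groups did not overlap, and within each group the samples themselves spread several-fold.

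BST2, which tethers budding virions to the membrane, was at 72.2, 317 and 129.99 TPM against 13.6, 20.2 and 43.2 TPM (-2.60). MX1, a dynamin-like GTPase that traps viral nucleocapsids, was at 33.4, 187 and 69.3 TPM against 6.25, 16.4 and 25.6 TPM (-2.36). RSAD2, viperin, was at 8.42, 75.1 and 26.4 TPM against 2.19, 5.58 and 6.72 TPM (-2.31). Nrf2 siRNA replicate 2 was the highest of the 6 samples in each of these genes. EIF2AK2, the kinase PKR that halts translation on double-stranded RNA, differed less but with tighter replicates, at 28.5, 49.7 and 36.2 TPM against 12.6, 19.5 and 18.9 TPM (-1.11, SE 0.24, limma adjusted p = 0.347). Outside the list, HELZ2 was at 11.7, 41.3 and 18.4 TPM against 4.14, 5.37 and 3.52 TPM (-2.05, limma adjusted p = 0.22), and UBA7 at 14.8, 25.5 and 11.7 TPM against 5.21, 4.83 and 9.15 TPM (-1.29). ISG15, the ubiquitin-like modifier that UBA7 activates, was at 114, 578 and 222 TPM against 35.0, 54.0 and 114 TPM, so that its lowest Nrf2 siRNA sample met its highest double siRNA sample.

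Of 23 signalling genes tested, 17 were lower, 8 were apart and lower, and the median was -0.22. None passed (smallest limma adjusted p = 0.361), and differences between the roles within this list were not tested. STAT2 and IRF9 of the ISRE-binding complex were among the lower ones. STAT2 was at 55.5, 97.1 and 67.1 TPM in Nrf2 siRNA and 36.9, 45.8 and 41.8 TPM in double siRNA (-0.77, limma adjusted p = 0.361), and IRF9 at 91.9, 105 and 96.0 TPM against 42.8, 59.0 and 80.4 TPM (-0.72). Both were apart. The RNA sensors RIGI (25.8, 99.0 and 51.0 TPM against 8.55, 19.9 and 24.7 TPM) and IFIH1 (18.1, 50.7 and 25.9 TPM against 5.17, 12.5 and 14.9 TPM) were lower without overlap, as was USP18, which removes ISG15 and restrains the receptor. These sensors and factors are themselves interferon-inducible. Receptor chains, adaptors and other factors had log2 differences of -0.31 for IFNAR1, -0.22 for IFNAR2, -0.10 for JAK1, -0.13 for the adaptor MAVS, -0.13 for STING1 and 0.04 for IRF3.

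Antigen presentation and the guanylate-binding proteins lay between effectors and signalling genes. All 18 tested were lower, 9 were apart, 13 had an unadjusted p below 0.05, none passed the adjustment, and the median was -0.65. HLA-B, a class I heavy chain, was at 504, 1158 and 743 TPM against 271, 327 and 416 TPM (-1.18, limma adjusted p = 0.351). Its partner B2M was at 1055, 1787 and 1461 TPM against 357, 667 and 1082 TPM (-1.14), which overlapped by 1 sample. GBP1 was at 45.7, 72.2 and 55.6 TPM against 22.9, 34.0 and 41.7 TPM, and NLRC5, the transactivator of class I genes, at 5.43, 6.86 and 5.46 TPM against 3.05, 2.96 and 4.31 TPM. Both were apart.

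**Figure D2:**
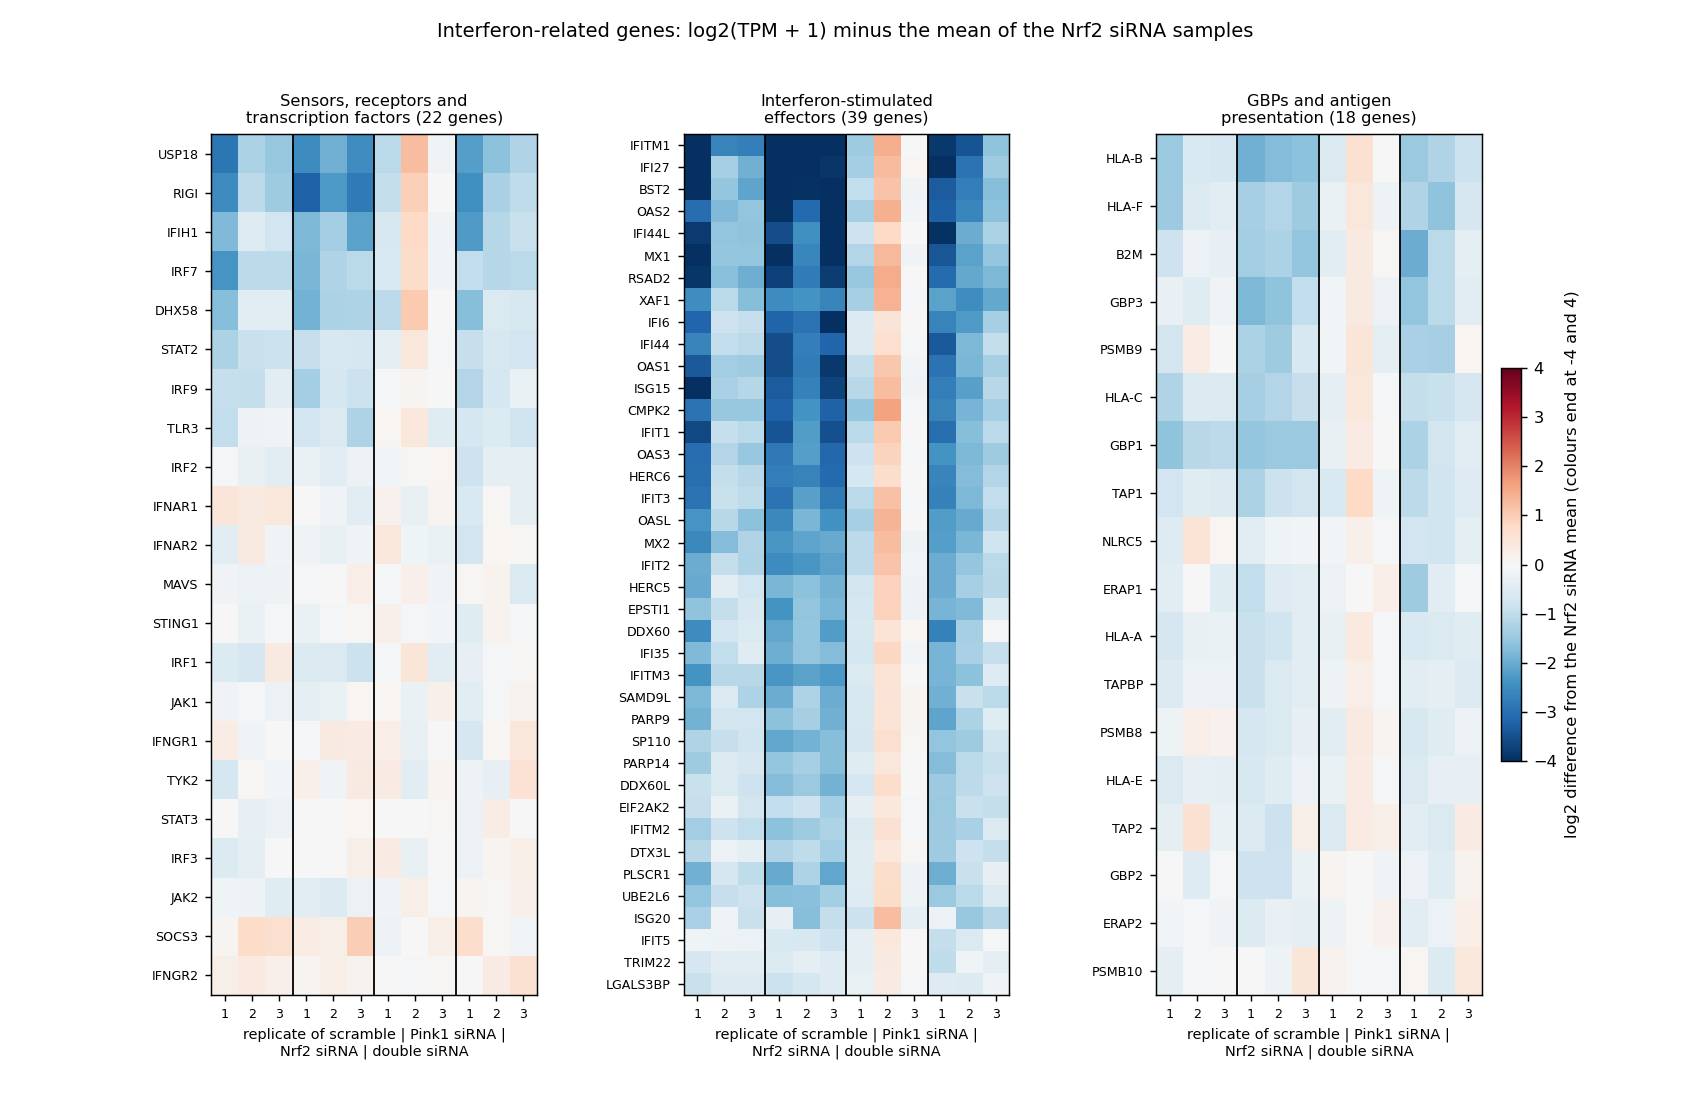
Log2(TPM + 1) of tested genes (rows) of 3 interferon lists in each of the 12 samples (columns), minus the gene's mean in Nrf2 siRNA, with colours ending at -4 and 4. In the effectors, Nrf2 siRNA replicate 2 is the highest column, and among double siRNA columns replicate 3 is the least negative.

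The median level of the 39 effectors, relative to the Nrf2 siRNA mean, was -0.72, 0.82 and -0.04 in Nrf2 siRNA replicates 1 to 3 and -2.15, -1.71 and -1.03 in double siRNA replicates 1 to 3. Scrambled siRNA lay at -2.39, -0.96 and -1.06, and Pink1 siRNA alone at -2.40, -2.12 and -2.25. The double siRNA cells were thus within the range of cells without Nrf2 siRNA, and scrambled siRNA replicate 1 sat with the Pink1 siRNA samples. The Pink1 siRNA difference without Nrf2 siRNA had a median of -0.83 over the effectors, lower in 38 of 39, with 6 apart and lower where 11.2% of all genes were. None of the 39 had an interaction with an unadjusted p below 0.05, and their median interaction was -0.73. Leaving out Nrf2 siRNA replicate 1 raised the effectors that were apart from 24 to 38, and leaving out double siRNA replicate 3 raised them to 37. The share of all genes apart and lower also rose, from 5.66% to 10.2% and 12.4%. Without Nrf2 siRNA replicate 2 the count was 24, where 11.2% of all genes were, and the median was -1.05. All 39 were lower in each of these settings. The blood marker CD68 moved with these genes, at 42.3, 105 and 52.7 TPM against 34.1, 34.8 and 52.5 TPM, while PTPRC, which marks all leukocytes, was near 0. With ENSG00000226958 removed and the rest rescaled, the median of the effectors was -1.66, and 32 were apart and lower, where 9.15% of all genes were.

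The cytosolic ribosomal proteins, which build the ribosome with its RNAs, held the most genes apart and higher of the 29 lists. All 61 cytosolic ribosomal protein genes had a higher mean in double siRNA, with a median of 0.42 and a maximum of 0.68. None passed the adjustment (smallest limma adjusted p = 0.423), 21 had an unadjusted p below 0.05, and 12 were apart and higher, where 3.83% of all genes were. RPL4, a large-subunit protein, was at 1490.2, 1060.3 and 1374 TPM in Nrf2 siRNA and 1586, 2212 and 2555 TPM in double siRNA (0.68, limma adjusted p = 0.423). RPLP0, which forms the base of the ribosomal stalk, was at 2419.7, 1815 and 2270.0 TPM against 2547, 3384 and 4586 TPM (0.66, limma adjusted p = 0.472). EEF1G, a subunit of the factor that recharges EEF1A1, was at 2068, 1523 and 1895 TPM against 2325, 2933 and 3695 TPM (0.69).

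The share of TPM taken by ENSG00000226958 moved with these levels, and its part in them was not tested. The median ribosomal level relative to the Nrf2 siRNA mean was 0.27, -0.34 and 0.05 in Nrf2 siRNA, lowest in replicate 2, where that gene took 38.6% of TPM. It was -0.01, 0.32 and 0.87 in double siRNA, highest in replicate 3, where it took 15.5%. With that gene removed and the rest rescaled, the median was 0.33 and 60 of 61 genes were higher. With quantile normalization it was 0.20 with 54 of 61 higher, and without double siRNA replicate 3 it was 0.18 with 55 of 61 higher. The number of ribosomal genes apart and higher rose to 22 with the removal, where 3.41% of all genes were. Without double siRNA replicate 1 it was 38, but the share of all genes rose there too, to 19.1%. Pink1 siRNA alone gave a median of 0.27 over the same genes, 58 of 61 higher and 29 apart and higher, where 13.8% of all genes were.

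**Figure D3:**
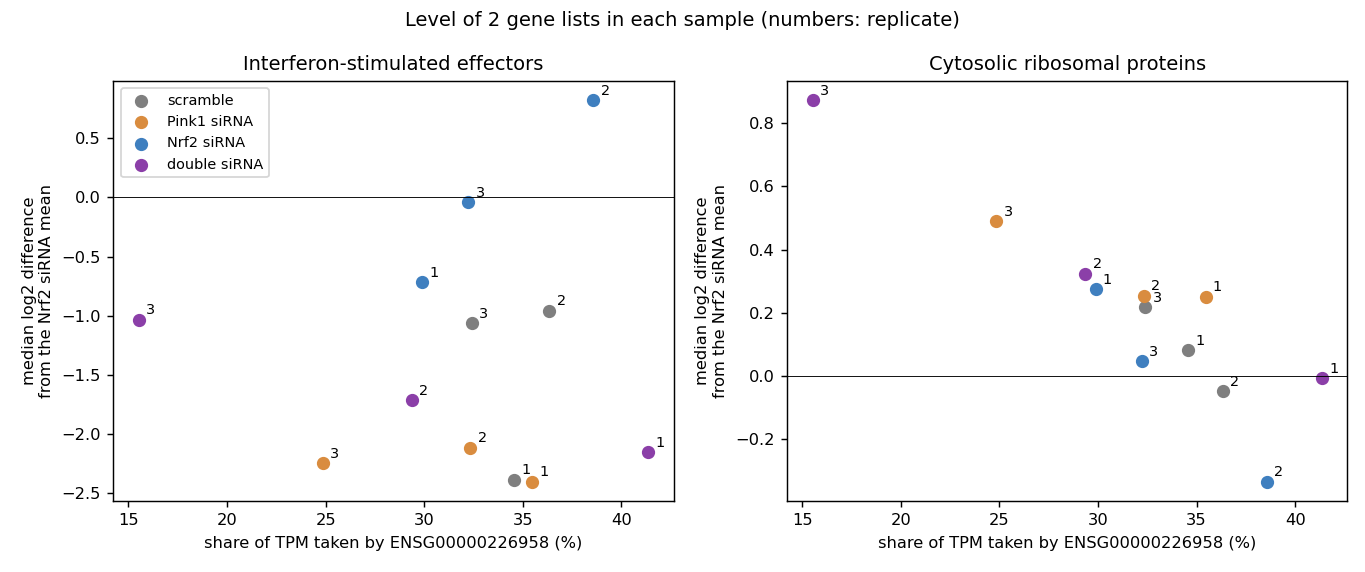
Median log2 difference of the interferon-stimulated effectors (left) and the cytosolic ribosomal protein genes (right) from the Nrf2 siRNA mean (vertical axis) against the percentage of TPM taken by ENSG00000226958 (horizontal axis), 1 point a sample, coloured by group and numbered by replicate. The effectors are highest in Nrf2 siRNA replicate 2 (0.82), and the ribosomal genes in double siRNA replicate 3 (0.87), where the percentage is lowest (15.5%).

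Small nuclear, nucleolar and Cajal-body RNAs and their host genes had 11 of 16 members lower, 3 apart and lower, and a median of -0.25. With technical replicate 1 alone that median was 0.09, and with a pseudocount of 0.1 it was -0.56. Beside SCARNA1, these were SCARNA5, at 6.41, 4.70 and 4.21 TPM in Nrf2 siRNA and listed at 0 TPM in every one of the 3 samples with double siRNA, and RNU4ATAC, the U4atac RNA of the minor spliceosome. RNU4ATAC was at 61.7, 41.8 and 54.3 TPM against 24.1 TPM in double siRNA replicate 1 and 0 in replicates 2 and 3. These RNAs are short and mostly lack poly(A) tails, and the libraries were made with an mRNA kit. The number of fragments behind their TPM is unknown.

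PINK1 was the only one of 24 mitophagy genes tested to pass, and the list's median was -0.02. The mitophagy receptor SQSTM1 was at 514, 567 and 537 TPM against 492, 577 and 664 TPM (0.09). The inner-membrane receptor PHB2 was apart and higher, at 147, 158 and 149 TPM against 173, 197 and 212 TPM (0.35, limma adjusted p = 0.64). The fusion GTPases went separate ways: MFN1 was apart and higher (0.41) and MFN2 apart and lower (-0.29), and neither passed. USP30, a deubiquitinase of the outer mitochondrial membrane, was at 11.4, 7.93 and 8.35 TPM against 10.6, 18.4 and 17.6 TPM (0.67, limma adjusted p = 0.568).

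Other mitochondrial gene groups had medians near 0, which turned negative without double siRNA replicate 3: -0.19 for oxidative phosphorylation, -0.11 for mitochondrial ribosomal proteins and -0.03 for dynamics and biogenesis. The median over all genes was -0.07 in that setting. The 76 nuclear-encoded subunits of oxidative phosphorylation had a median of 0.01, 39 higher and 37 lower, none apart, and the lowest was the complex I subunit NDUFC1 (-0.53, limma adjusted p = 0.68). The 72 mitochondrial ribosomal proteins had a median of 0.09, and MRPS18C was the lowest, at 33.6, 41.5 and 40.5 TPM against 13.9, 12.8 and 33.2 TPM (-1.04, limma adjusted p = 0.423). Of 28 genes of mitochondrial dynamics, biogenesis and quality control, 21 were higher, with a median of 0.10. PPARGC1A, the coactivator that drives mitochondrial biogenesis, was the lowest of them, at 3.995, 3.68 and 3.47 TPM against 2.31, 2.74 and 2.13 TPM (-0.48, limma adjusted p = 0.724).

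Of 27 NRF2 target genes tested, 19 were higher in double siRNA, 2 were apart, none passed, and the median was 0.15. NQO1, a quinone reductase, was at 49.7, 40.3 and 43.5 TPM against 46.6, 61.9 and 72.4 TPM (0.41, limma adjusted p = 0.652), both far under the 153 to 166 TPM of scrambled siRNA. TXNRD1, thioredoxin reductase, was at 307, 246 and 284 TPM against 301, 383 and 355 TPM (0.31). In both genes double siRNA replicate 1 overlapped the Nrf2 siRNA samples, and replicates 2 and 3 lay above them. Replicate 1 had the lowest NFE2L2 of its group (22.2 TPM). It also had the lowest median over all genes relative to the Nrf2 siRNA mean (-0.20, against 0.05 and 0.13 in replicates 2 and 3). The part of either in these 2 genes was not tested. HMOX1, heme oxygenase, differed by 0.09. An antioxidant response element core, TGAC, any 3 bases and GC on either strand, was searched in the same promoters. It was present for 7 of 21 of these genes (33.3%), for 19.5% of the genes tested and for 16.1% of all genes with a promoter. The integrated stress response, which shares targets with NRF2, had a median of 0.00 over 22 genes, 11 in each direction.

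**Figure D4:**
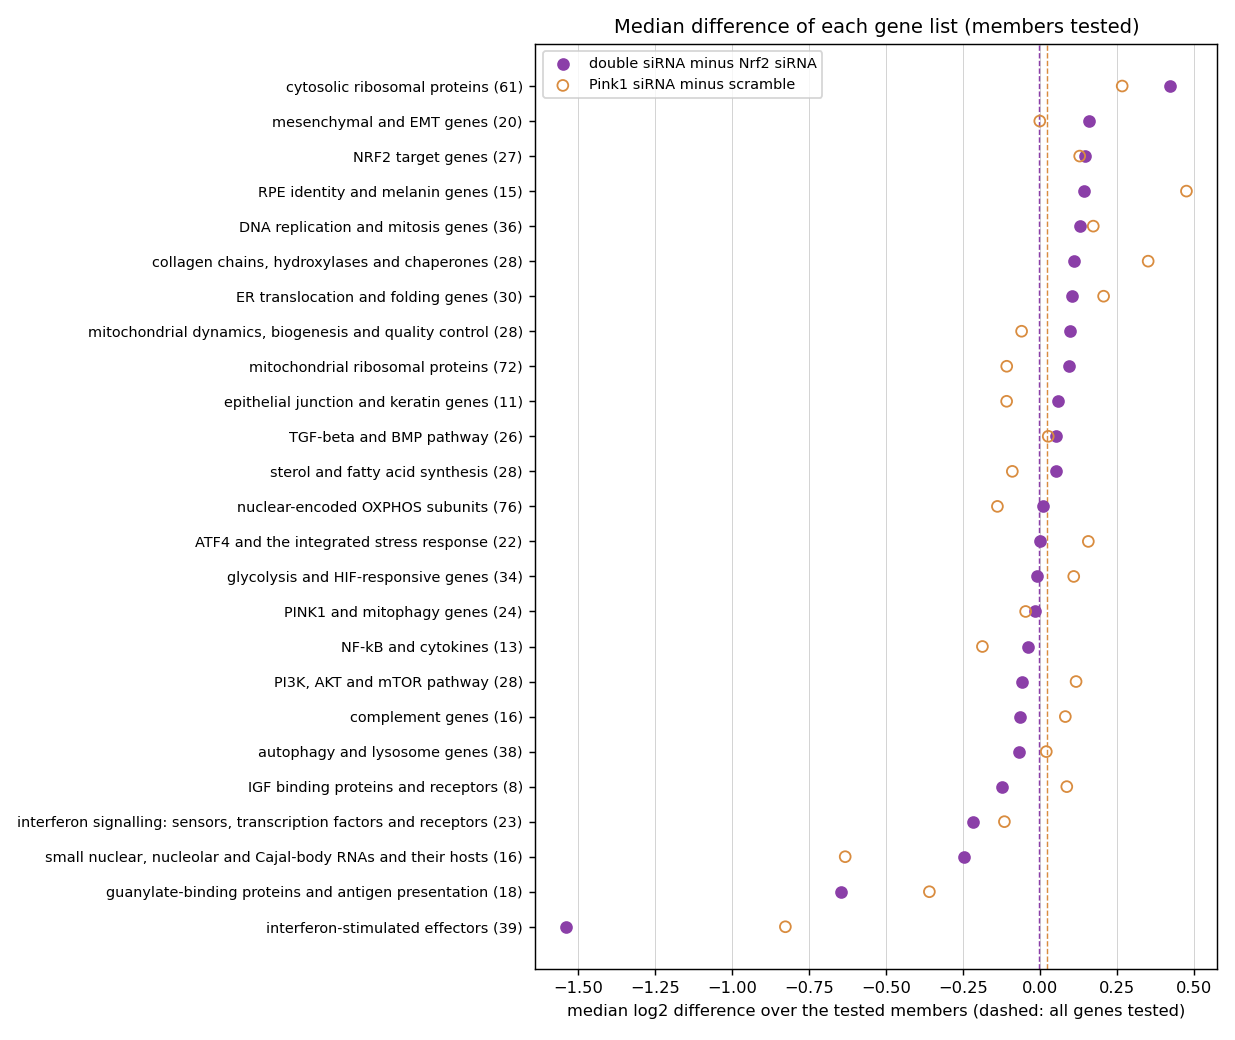
Median log2 difference over the tested members of 25 gene lists (number of members in brackets), for double siRNA minus Nrf2 siRNA (filled) and Pink1 siRNA minus scramble (open), with dashed lines at the medians of all genes. For the first comparison the interferon-stimulated effectors lie lowest (-1.54), the ribosomal proteins highest (0.42), and most other lists near 0.

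Lists of cell identity and matrix genes had medians between 0.06 and 0.16, and no member passed. Apart and higher were 5 of 28 collagen genes, 3 of 11 epithelial genes and 2 of 20 mesenchymal genes, where 3.83% of all genes were. The 20 mesenchymal genes had a median of 0.16. TAGLN, an actin-binding protein of contractile cells, was at 708, 331 and 506 TPM against 906, 903 and 964 TPM (0.91, limma adjusted p = 0.472). CCN2, connective tissue growth factor, differed by 0.81 with overlap, FN1 by 0.43, VIM by 0.21 (-0.10 with quantile normalization) and the transcription factor ZEB1 by 0.00. MMP2, gelatinase A, was apart and lower, at 93.3, 84.2 and 80.4 TPM against 70.8, 63.2 and 64.6 TPM (-0.37, limma adjusted p = 0.525). Of 28 collagen genes, 21 were higher (median 0.11), and those apart included the collagen prolyl hydroxylase P3H1, at 50.6, 58.1 and 43.9 TPM against 73.0, 67.3 and 81.6 TPM (0.54, limma adjusted p = 0.387), and PCOLCE, which speeds procollagen cleavage (0.83). The 11 epithelial genes had a median of 0.06, and the 3 apart were the simple-epithelial keratins KRT18 (0.46), KRT7 (0.45) and KRT8 (0.28). The 15 RPE and melanin genes had a median of 0.14, and of -0.04 without double siRNA replicate 3, where that of all genes was -0.07. PMEL, which forms the fibrils of the melanosome, was apart and lower, at 6.78, 7.03 and 7.12 TPM against 4.49, 3.03 and 4.83 TPM (-0.66, limma adjusted p = 0.48), and the melanin enzyme TYR differed by 0.48.

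Growth factor and signalling lists held single genes with lower values. CHRDL1, a secreted antagonist of BMPs, was at 28.1, 32.6 and 37.6 TPM against 14.0, 25.3 and 15.5 TPM (-0.84, limma adjusted p = 0.347), in a TGF-beta and BMP list of 26 genes with a median of 0.05. PIK3R1, the regulatory subunit of PI3K, was at 35.2, 34.1 and 37.0 TPM against 21.1, 24.7 and 20.6 TPM (-0.66, limma adjusted p = 0.351). The receptor IGF1R was at 16.7, 28.1 and 16.8 TPM against 12.3, 13.5 and 11.3 TPM (-0.65), and the adaptor IRS2 differed by -0.43. These were the 3 members apart and lower of the PI3K, AKT and mTOR list of 28 genes, in which 2 were apart and higher, 12 were higher in all and the median was -0.06. The 8 IGF binding proteins and receptors had a median of -0.12, with STC2, an inhibitor of the protease that frees IGF, at -0.44. EGLN3, the HIF prolyl hydroxylase that hypoxia induces, was at 4.12, 3.71 and 3.38 TPM against 1.32, 1.43 and 1.76 TPM (-0.92, limma adjusted p = 0.351), while the 34 glycolysis and HIF genes had a median of -0.01.

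Lysosome and autophagy genes (38 tested, median -0.07) had 4 apart and lower and 1 apart and higher. The cysteine protease CTSO was at 14.955, 12.9 and 15.1 TPM against 7.38, 9.31 and 10.2 TPM (-0.63, limma adjusted p = 0.347), and ATG16L1, which guides LC3 lipidation, differed by -0.60. Of 16 complement genes (median -0.07), 2 were apart and lower and 1 apart and higher. The protease C1S was apart and lower, at 172, 246 and 221 TPM against 99.3, 138 and 164 TPM (-0.68, limma adjusted p = 0.414), and C3 differed by -0.84. The ER folding list (30 genes, median 0.10) had 3 apart and higher and 2 apart and lower. The disulfide isomerase PDIA4 was apart and higher, at 83.7, 92.4 and 89.5 TPM against 116, 121 and 109.5 TPM (0.38, limma adjusted p = 0.476). Among 13 NF-kB and cytokine genes (median -0.04), 1 was apart and lower and 1 apart and higher. The latter was the alarmin IL33, at 2.85, 4.01 and 2.25 TPM against 5.09, 10.8 and 7.25 TPM (1.08, limma adjusted p = 0.424). Sterol and fatty acid synthesis (28 genes, median 0.05) and DNA replication and mitosis (36 genes, median 0.13) each had 2 genes apart and higher and none lower.

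The same siRNA given without Nrf2 siRNA is the natural reference, and that comparison shares no sample with the one above. Pink1 siRNA against scrambled siRNA called 65 genes, 0.471% of those tested, 49 higher and 16 lower. Its samples were tighter, with a median gene standard deviation of 0.17 within scrambled siRNA and 0.20 within Pink1 siRNA. Within Nrf2 siRNA and double siRNA it was 0.21 and 0.31. The part of this in the numbers of genes called was not tested. On the Nrf2 siRNA background, 40 of the 49 were higher and 9 lower, 14 were apart and higher and 2 apart and lower, and none passed. Their median log2 difference was 0.17, beside 1.11 without Nrf2 siRNA. Of the 16, 15 were lower and 9 apart and lower, PINK1 alone passed, and the median was -0.46 beside -1.10. The 65 were chosen for being large in the other comparison, so their medians there are larger by that choice. With each sample of the 2 groups left out in turn, 34 to 41 of the 49 were higher and 13 to 15 of the 16 were lower.

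For some of the 65 genes the difference on the Nrf2 siRNA background had the same sign, though of those given next none passed there. HMCN1, an extracellular matrix protein of the fibulin family, was at 13.3, 9.51 and 11.01 TPM in Nrf2 siRNA and 17.9, 21.9 and 29.4 TPM in double siRNA (0.95, limma adjusted p = 0.387), and rose by 2.45 without Nrf2 siRNA. The mitotic kinase and inflammasome component NEK7 was at 47.6, 55.4 and 55.1 TPM against 26.9, 29.9 and 32.6 TPM (-0.80, limma adjusted p = 0.349), and fell by 0.97 without it. The log2 difference of the lactonase PON2 was -0.72 on that background, and PON2 fell by 1.01 without it. For CTSO the value was -0.63 beside a fall of 1.04, and for CHRDL1 -0.84 beside a fall of 1.46. For IL33 it was 1.08 beside a rise of 1.81.

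Others had a large difference without Nrf2 siRNA and a small or opposite one with it. TYRP1, a melanin enzyme, went from 9.77, 8.29 and 11.7 TPM with scrambled siRNA to 40.01, 43.6 and 52.995 TPM with Pink1 siRNA, a rise of 2.09 on the log2 scale. With Nrf2 siRNA it was already at 24.6, 23.9 and 21.1 TPM and was at 24.4, 20.8 and 34.5 TPM in double siRNA (0.16). The interaction for TYRP1 was -1.93 (95% confidence interval -2.52 to -1.35) with a limma adjusted p of 0.0558. CP, the copper ferroxidase ceruloplasmin, rose from 14.3, 9.02 and 9.36 TPM to 37.4, 31.5 and 36.1 TPM without Nrf2 siRNA (1.62). With Nrf2 siRNA the sign was opposite: CP was at 25.9, 26.4 and 29.8 TPM against 14.2, 23.8 and 22.3 TPM in double siRNA. It was apart and lower there (-0.46, limma adjusted p = 0.715). Its interaction was -2.08 (limma adjusted p = 0.0558). For SLC7A8, an exchanger of neutral amino acids, the differences were 1.91 and 0.16, and the interaction was -1.75 (limma adjusted p = 0.0697).

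IGFBP5 differed by 0.01 on the Nrf2 siRNA background and rose by 1.07 without it (interaction limma adjusted p = 0.271). PPARGC1A differed by -0.48 and rose by 1.28 (interaction -1.75, limma adjusted p = 0.266). The tight-junction gene CLDN1 differed by -0.03 and fell by 1.03 (interaction 0.996, limma adjusted p = 0.544). The histone methyltransferase KMT2C was at 22.3, 18.4 and 24.0 TPM against 13.4, 14.0 and 11.5 TPM (-0.69) and differed by 0.42 without Nrf2 siRNA, for an interaction of -1.11 (limma adjusted p = 0.266). No gene passed the interaction test at an adjusted p below 0.05 (0% of 13810), so a different effect of Pink1 siRNA on the 2 backgrounds was not shown for any of them. The unadjusted limma p of the interaction was below 0.05 for 753 genes (5.45%), a share near that threshold itself. Of these estimates, 191 were positive and 562 negative.

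**Figure D5:**
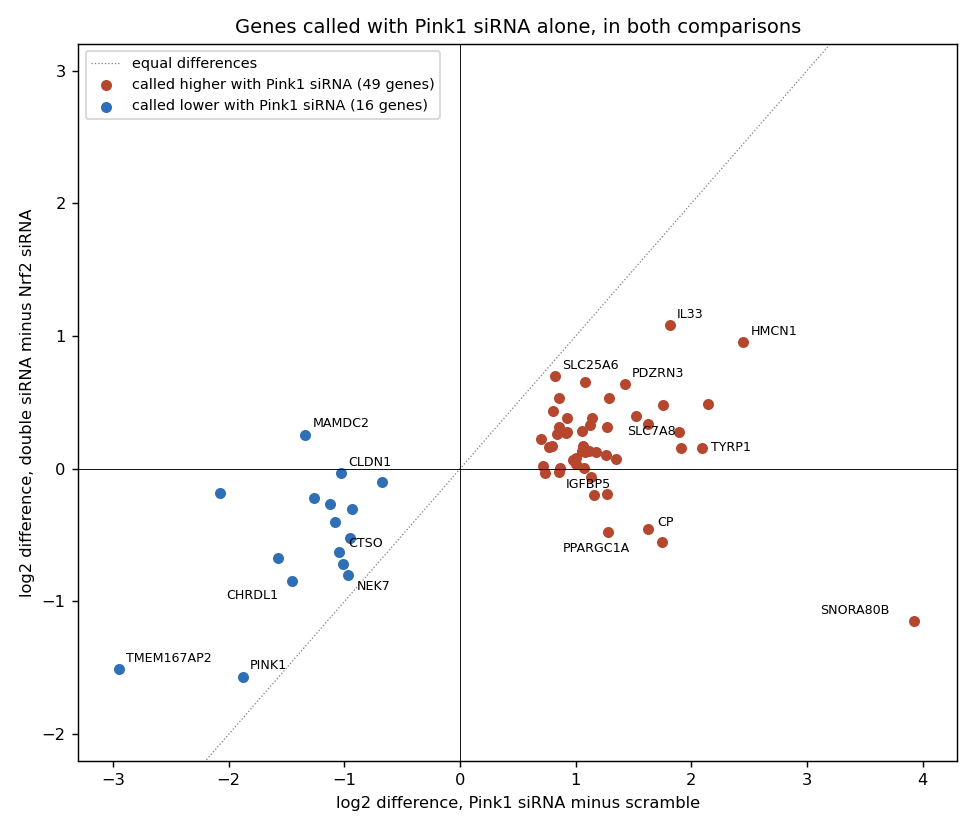
Log2 difference of double siRNA from Nrf2 siRNA (vertical axis) against that of Pink1 siRNA from scrambled siRNA (horizontal axis) for the 65 genes called in the latter comparison, with selected genes labelled. PINK1 lies low on both axes (-1.57 and -1.88), HMCN1 and IL33 are positive on both, and TYRP1, SLC7A8 and CP are high on the horizontal axis only.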

How the data were processed

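RNA was prepared with a stranded poly(A) mRNA kit and sequenced in pairs, per the labels' protocols. The authors deposited TPM per Ensembl gene (24053 genes, each sample summing to 999678 to 999945), and the submitters' processing notes name STAR, RSEM, edgeR and GRCh37 (hg19) without versions or roles. Of the identifiers, 19325 had a symbol in the name table.

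The 2 technical replicates of each sample were averaged as TPM. Genes averaging 1 TPM or more across the 12 samples were kept and analysed as log2(TPM + 1) with limma 3.58.1 (R 4.3.3): 4 groups, mean-variance trend, 8 residual and 4.934 prior degrees of freedom, with contrasts double minus Nrf2 siRNA, Pink1 siRNA minus scramble, and their difference. Fold changes on this scale understate low genes. An exact permutation test of 3 against 3 samples cannot go below 0.1. The fit was tested on simulated data.

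The comparison, its gene lists and the named genes were chosen with earlier results of these data known. Named genes were the targets, up to 15 called or else the 12 with the smallest p in each direction, up to 8 with the smallest interaction p in each direction, and the leading members of each list. Some items are not reported here. Other members were chosen after their values were seen. Figures used Python 3.11.15 and matplotlib 3.10.9.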

Additional observations from a re-analysis of the deposited data

How the results depend on the processing

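PINK1 and SCHIP1 kept their direction under every alternative run. Of 29 list medians, 17 changed sign under at least 1 alternative, and so did 22 of 130 named genes, none of which passed in double against Nrf2 siRNA. Without double siRNA replicate 3 the medians of oxidative phosphorylation and mitochondrial ribosomal proteins were -0.19 and -0.11, beside -0.07 over all genes. Without double siRNA replicate 1 the medians of mitophagy, glycolysis, and autophagy and lysosome genes were 0.15, 0.10 and 0.08, beside 0.09 over all genes. Double siRNA against Nrf2 siRNA called 2 genes, and 1 to 4 when each sample was left out in turn. Without the filter on low genes this comparison called PINK1, lower, and NQO1-DT, higher, and not SCHIP1. It called 0 with the 2 groups fitted alone (624 at an unadjusted p below 0.05 by limma), 1 with technical replicate 1 alone, 0 with technical replicate 2 alone (929 at an unadjusted p below 0.05), and 71 with sample weights estimated gene by gene, an alternative added after the data were seen. PINK1 stayed at -1.57 with the 2 groups alone and with technical replicate 2 alone but did not pass there, and ranged from -1.65 to -1.44 with each sample left out, passing each time. Pink1 siRNA against scramble called 65 genes (49 higher, 16 lower), and 40 without a filter, 171 with median-of-ratios scaling, 215 with quantile normalization, 177 with ENSG00000226958 removed (90 higher, 87 lower), 195 with its 2 groups alone, 40 and 34 with technical replicate 1 or 2 alone, 666 with the weights, and 22 to 154 with each sample left out. The interaction called 0 genes, 3 with a minimum of 5 TPM, 2 with median-of-ratios scaling, 2 with quantile normalization, 2 with ENSG00000226958 removed, 20 with the weights, and 0 to 4 with each sample left out. The cause of these differences was not tested.

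The labels number the replicates alike, but same-numbered Nrf2 siRNA and double siRNA samples did not deviate together (correlations across genes -0.05, -0.06 and 0.0029, 0 of 3 best with their own number), so the numbers were not taken as pairs. With a replicate block, double against Nrf2 siRNA called 2 genes, Pink1 siRNA against scramble 40 and the interaction 0, and PINK1 had a limma adjusted p of 0.0308. The planned sample weights by restricted maximum likelihood did not converge and were not run.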

Other observations

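Double siRNA replicate 3 held genes at levels that no other sample reached, and both of its technical replicates showed them. ACTN4, an actin crosslinker, was at 591 and 601 TPM in these replicates, while the other 11 samples lay between 52.8 and 99.6 TPM. FKBP10, a collagen prolyl isomerase of the ER, was at 65.8 and 62.3 TPM against 3.22 to 8.93 TPM elsewhere. RAB5C, an early endosome GTPase, was at 64.8 and 61.5 TPM against 10.2 to 15.3 TPM. In the opposite direction, GANAB, a glucosidase of ER quality control, was at 97.2 and 90.2 TPM against 260.5 to 394 TPM. TKT, an enzyme of the pentose phosphate pathway, was at 94.3 and 90.8 TPM against 198 to 586 TPM, and the histone chaperone HIRA was at 2.01 and 2.33 TPM against 8.19 to 12.8 TPM. These genes were picked for their values in 1 sample.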
